A study of Mus musculus with 209 samples.

Results

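The constitutive proteasome subunits were taken as every gene of the count table whose symbol is Psma, Psmb, Psmc or Psmd followed by a number, without Psmb8, Psmb9 and Psmb10. The rule used names alone and no measured value, and it gave 36 of the 55011 genes. The series measured RNA in sorted mouse immune cells after an intravenous injection of a cytokine, and asks which genes each of IL1b, IL6 and TNFa moves in which cell type. It holds 209 libraries, of which 183 belong to a screen of 14 cell types, 20 to a time course of TNFa and 6 to an experiment with lipopolysaccharide (LPS, a bacterial cell wall component). The deposited values are raw read counts per gene.

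All libraries came from C57BL/6J mice aged 5 to 8 weeks with no other allele named. In the screen, each animal was given 5 µg of 1 cytokine (IL1b, IL6 or TNFa) dissolved in 120 µL of PBS, or that volume of PBS alone, and 1000 cells of each type were sorted 2 h later. PBS groups held 4 or 5 libraries (4 in MC, DC.8+, T.8 and MZB). Cytokine groups held 3, except 2 for IL1b and IL6 in MC, IL1b in DC.8+, IL6 in NK, IL6 in B.fo and TNFa in T.8, and pDC had no IL1b group. The time course covered MFpc and Mo.6C+ at 2, 4, 8 and 24 h after TNFa with 2 libraries per group, and its only PBS libraries are at 24 h. The LPS experiment set 3 Mo.6C+ libraries from mice given 1 ng of LPS in 120 µL against 3 controls, and the time of its sort is not stated in the sources used here. No label states that the libraries of 1 group are from different mice, so p-values measure the spread between these libraries, which may be technical.

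Cell types are called by the short names in the labels. Each name was checked against a list of 5 to 7 marker genes, and in all 14 types every library stood higher for its own list than any library of another type. MFpc libraries were highest for macrophage genes of the peritoneal cavity (Timd4, Gata6), Mo.6C+ for monocyte genes (Ly6c2, Ccr2), GN for neutrophil genes (S100a8, Retnlg), MC for mast cell genes (Cpa3, Mcpt4) and MFrp for macrophage genes of the splenic red pulp (Spic, Slc40a1). The tissue label of most libraries names the peritoneal cavity where the title names the spleen, and the titles were followed. Library totals ran from 1094567 to 9291121 counts, with a median of 4702887, and no replicate pair of the 251 agreed within sampling noise. RNA of other cells was uneven within some groups. In DC.8+ the natural killer list (Ncr1, Klrb1c and 4 others) ran from a mean log2 level of 1.97 to 5.38 over the 4 PBS libraries and from 2.61 to 5.72 over the 3 TNFa libraries.

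The proteasome is the protease that degrades proteins tagged with ubiquitin. Its barrel-shaped core has outer rings of alpha subunits, which gate the channel, and inner rings of beta subunits, of which Psmb5, Psmb6 and Psmb7 cut peptide bonds. A regulatory particle sits on the core. Its base holds a ring of ATPases (Psmc genes) that unfold the substrate, and its lid (most Psmd genes) deubiquitinates it. In immune cells, interferon-induced Psmb8, Psmb9 and Psmb10 can take the place of Psmb5, Psmb6 and Psmb7 and form the immunoproteasome, which favours peptides for antigen presentation. The constitutive genes are commonly treated as housekeeping genes, and the transcription factor NRF1 (gene Nfe2l1) raises them together when proteasome activity falls short.

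Of the 36 members, 34 had counts in at least 208 of the 209 libraries. Psma8, an alpha subunit known from testis, had counts in 132 libraries with a median count of 2, and Psmb11, the catalytic subunit of thymic epithelium, had counts in 123 with a median of 1. A filter on low counts left 34 or 35 members tested in each comparison. Psmb11 was tested in T.8 alone, and Psma8 in some cell types only. Some members share exons with a gene on the opposite strand, and whether strand was used in counting is not given in the sources used here. Psmb7 shares 253 bases with Nek6, Psmc3 shares 147 with Slc39a13, Psmd13 shares 329 with Sirt3, Psmd1 shares 252 with Htr2b and Psmd9 shares 1849 with Gm26745. Reads of such pairs cannot be told apart, so these members' values are less certain.

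To show where the leading members start on the genome and which letters stand before them, the 170 bases upstream of the RefSeq start are printed for Psma6, the member raised in the most cell types, for the catalytic Psmb5 and Psmb6, and for the lid deubiquitinase Psmd14. Sequences are RefSeq's on GRCm38.p6 and run 5′ to 3′ on the gene's strand. Capitals mark a match to the antioxidant response element TGACNNNGC, to which NRF1 and the related NRF2 bind, or to CCAAT or its reverse complement ATTGG, to which NF-Y binds. Psma6 lies at chr12:55384222-55418454 (plus strand, GENCODE vM21), and RefSeq gives it windows at chr12:55384052-55384221 and chr12:55398655-55398824. Psmb5 lies at chr14:54614119-54618022 (minus strand), with its window at chr14:54617996-54618165. Psmb6 lies at chr11:70525367-70527858 (plus strand), with its window at chr11:70525187-70525356. Psmd14 lies at chr2:61711694-61800376 (plus strand), with its window at chr2:61711524-61711693.
Psma6, first start: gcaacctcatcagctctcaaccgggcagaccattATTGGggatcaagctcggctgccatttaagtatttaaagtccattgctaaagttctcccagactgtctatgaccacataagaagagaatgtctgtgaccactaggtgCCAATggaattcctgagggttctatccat
Psma6, second start: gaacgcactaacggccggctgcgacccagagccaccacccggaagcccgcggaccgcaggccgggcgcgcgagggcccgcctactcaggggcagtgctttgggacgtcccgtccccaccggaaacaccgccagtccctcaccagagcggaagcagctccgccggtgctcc
Psmb5: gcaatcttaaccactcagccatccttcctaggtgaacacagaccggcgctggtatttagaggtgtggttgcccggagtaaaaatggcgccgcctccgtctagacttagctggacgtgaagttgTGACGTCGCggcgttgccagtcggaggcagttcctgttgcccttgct
Psmb6: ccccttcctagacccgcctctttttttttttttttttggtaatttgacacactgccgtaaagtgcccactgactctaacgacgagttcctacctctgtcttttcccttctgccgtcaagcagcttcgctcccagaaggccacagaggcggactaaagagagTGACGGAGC
Psmd14: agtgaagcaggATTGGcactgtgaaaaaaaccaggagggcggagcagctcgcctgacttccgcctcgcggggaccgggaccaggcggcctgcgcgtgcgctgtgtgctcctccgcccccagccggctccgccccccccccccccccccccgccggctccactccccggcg
The catalytic genes Psmb5 and Psmb6 each hold 1 antioxidant response element, whose first base lies at position -47 and -9 from the start. The upstream window of the first Psma6 start holds 2 CCAAT matches, that of Psmd14 holds 1, and the second Psma6 window holds neither motif.

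Motifs were counted on both strands in windows from 250 bases before to 50 after each start, which exist here for 29 of the 36 members. The 7 members without one are Psma8, Psmb7, Psmb1, Psmb2, Psmc3, Psmd3 and Psmd7. The antioxidant response element was found in 5 of the 29 members (17.2%; Psmb5, Psmb6, Psmc6, Psmd9 and Psmd12) and in 12.4% of all 32851 windows. CCAAT was found in 12 members (41.4%) and in 37.4% of all windows, and TATAAA in 3 members (10.3%) against 13.6%. The palindrome TTCNNNGAA, bound by STAT factors, was found in Psmd2 (3.45% of members) and in 8.3% of all windows. The NF-kB consensus was found in 5 members (17.2%; Psma6 at its second start, Psma7, Psmd11, Psmd12 and Psmd13) and in 8.46% of all windows. Matches to different motifs did not overlap in the members. The member percentages are per gene, with any of its windows, while those of all windows are per window. Of the members' 31 windows, 5 held the antioxidant response element, 12 CCAAT, 3 TATAAA, 1 the STAT palindrome and 5 the NF-kB consensus. A match is a description of letters, not a bound site.

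In PBS libraries the members were expressed in all 14 cell types, lowest in sum in GN. Under TMM scaling DC.8+, MFpc and Mo.6C+ stood highest, an order that changed with library totals as the only scaling. Levels are CPM, each library's counts rescaled to a common total, after TMM scaling, which sets library totals so that most genes agree between libraries. In these paragraphs on PBS levels the scaling was set over the PBS libraries of all cell types together, and in all later ones within each cell type or experiment, so the CPM of a library differ between them. The summed level of the 36 members was 6663 ± 1073 CPM (SD, n = 4) in DC.8+, 6247 ± 328 (n = 5) in MFpc and 6090 ± 477 (n = 5) in Mo.6C+. It was lowest in GN, at 3245 ± 468 (n = 5), followed by MZB at 4080 ± 255 (n = 4). The other 9 types lay between 4667 and 5366 CPM, and neighbours among these 9 differed by less than the larger of their SDs. The highest group mean was 2.05 times the lowest. With library totals only it was 3.24 times, Treg was highest (6323 CPM), MFpc at 4619 lay above MC and GN alone, Mo.6C+ at 5574 lay below 7 other types, and GN remained lowest (1952). GN held the lowest mean level for most members, the widest gap being that of Psma5 (5.92 times between GN and DC.8+). These levels are a description with no test.

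Per kilobase of exon, Psmb2 (139 CPM per kb, the median over cell types), Psma6 (111), Psmc5 (109), Psmb6 (109) and Psmb5 (101) led the members. Psmb7 stood at 11.1 CPM per kb, Psmd9 at 4.97, Psma8 at 0.163 and Psmb11 at 0.113. This order, and the catalytic shares below, depend on the exon length divided by. Which exons each cell type used was not examined. As mean CPM by cell type, not divided by length, Psmb7 ran from 23.7 to 85.1, Psmb5 from 44.9 to 138 and Psmb6 from 58.5 to 270. The immunoproteasome subunits stood at 152 (Psmb8), 85.9 (Psmb10) and 57.8 (Psmb9). Psmb5, Psmb6 and Psmb7 made up 68.2% ± 2.55 (SD, n = 4) of the summed level per kb of the 6 catalytic subunits in MC and 57.9% ± 1.35 (n = 5) in MFpc. The share was 34.5% ± 2.08 (n = 4) in DC.8+, and the other 11 types lay between 36.9% and 49.6%. The share in MC libraries (65.0% to 70.9%) did not overlap that in MFpc libraries (56.9% to 60.2%), and in the single MFrp library with the highest share it was 61.8%.

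At 2 h after injection members were raised most often by TNFa, in MFpc (30), Mo.6C+ (27), NK (15), pDC (13) and GN (12), and summed over cell types least often by IL6. Over all cell types, TNFa raised members in 107 of 483 tests of 1 member in 1 cell type and lowered 2, where 8.26% of all genes' tests were raised and 7.95% lowered. IL1b raised members in 46 of 448 tests and lowered none (5.76% and 4.26% of all tests), and IL6 in 18 of 483, lowering none (1.46% and 0.95%). These calls are at an adjusted p under 0.05 in edgeR's quasi-likelihood test, with Benjamini-Hochberg adjustment over all genes tested in the comparison. Of the lowered direction, an unadjusted p under 0.05 was reached in 8 tests for IL1b, 10 for IL6 and 16 for TNFa, and DESeq2 called 1, 2 and 8. With library totals as the only scaling the calls became 28 raised and 4 lowered for IL1b and 64 raised and 21 lowered for TNFa. In bulk samples, a change in how many cells of a kind were sorted and a change in RNA per cell cannot be told apart.

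In MFpc, TNFa raised 30 of 35 members tested (26.6% of all genes were raised), with a median log2 fold change of 0.56 over the members and -0.05 over all genes tested. IL1b raised 20 (20.7%, median 0.27) and IL6 8 (9.16%, median 0.17; 5 without IL6 library 2). In Mo.6C+, TNFa raised 27 of 35 (24.3%, median 0.83), IL1b 22 (19.4%, median 0.53) and IL6 4 (3.78%, median 0.27). In GN, TNFa raised 12 of 34 (18.5%) and lowered 1 (19.0%), IL1b raised 4 (12.9%) and IL6 5 (5.23%). The share of members raised in GN by IL1b is near that of all genes or below it, and by IL6 the 5 of 34 stand above 5.23%. The IL6 count in Mo.6C+ fell to 2 without PBS library 2, 4 or 5, to 1 without PBS library 3 or IL6 library 2, and to 0 without IL6 library 3. In GN the IL1b count was 2 without PBS library 3 or 4 and 1 without IL1b library 2, and the IL6 count was 3 without PBS library 3 or 5 or IL6 library 3 and 1 without IL6 library 2. After IL6 in GN the members' median was 0.48, and 0.46 with 5 raised under library totals only. The median was 0.23 after IL1b and 0.44 after TNFa under TMM, but -0.21 and -0.34 with library totals only, where TNFa raised 3 members and lowered 11 and IL1b raised 1 and lowered 3. That scaling moved the median of all genes by -0.44 and -0.78 in these GN comparisons, by -0.43 for TNFa in Mo.6C+ (19 members raised, 5 lowered) and by -0.30 for TNFa in MFpc (20 raised, 1 lowered).

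**Figure D1:**
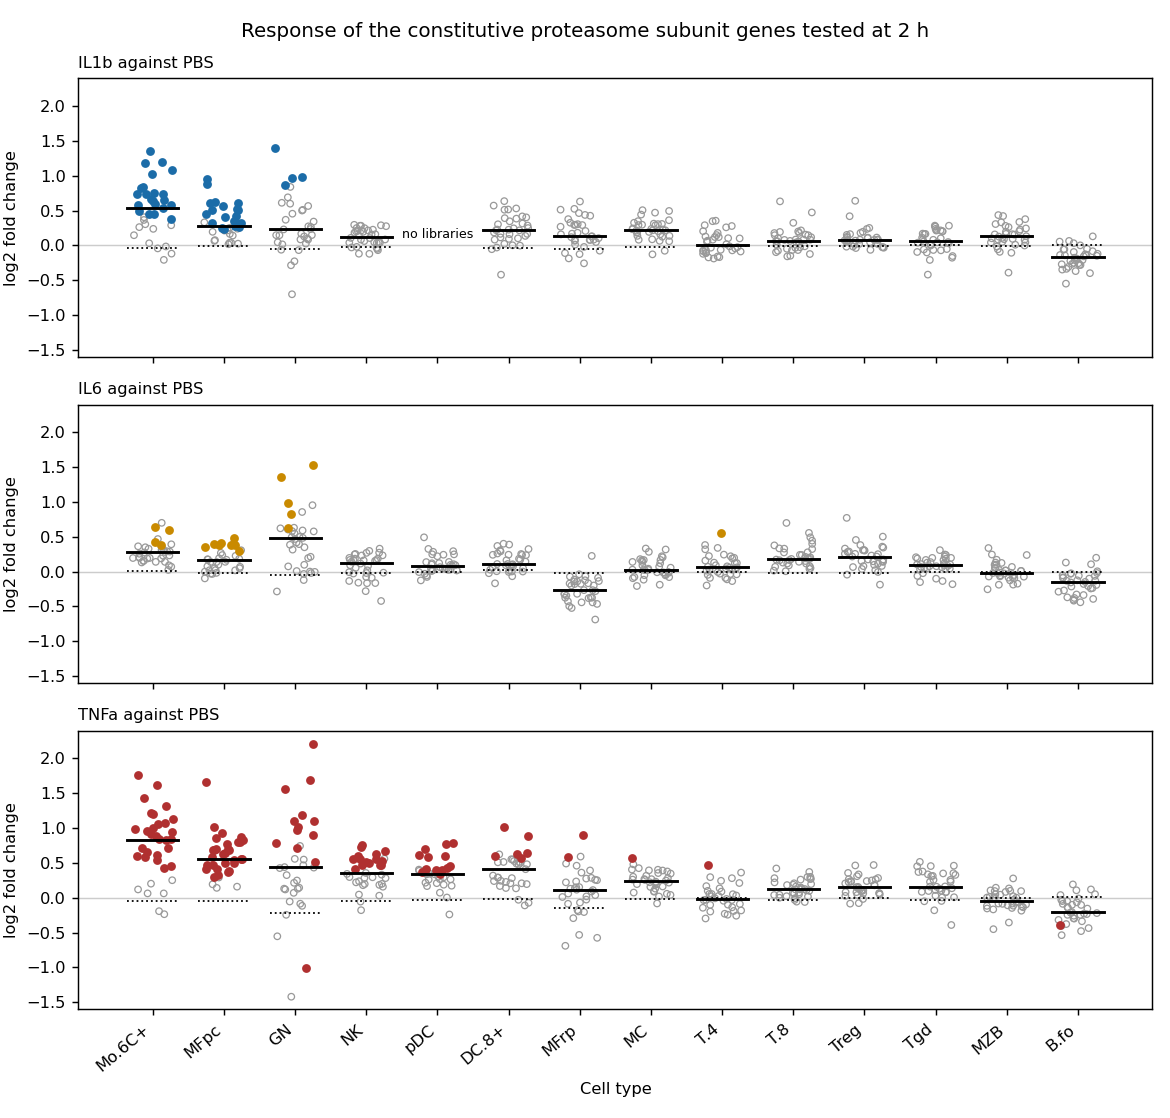
Log2 fold change against PBS at 2 h of the 34 widely expressed members (points) in each cell type, 1 panel per cytokine; filled points passed an adjusted p of 0.05, the solid line is the median of the members tested and the dotted line that of all genes. After TNFa the members' median lies above the dotted line in MFpc, Mo.6C+ and GN, at 0.56, 0.83 and 0.44, though in GN after IL1b and TNFa and in MFrp after TNFa the median turns negative with library totals as the only scaling.

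Markers of other cells moved with some of these groups. The red pulp macrophage list (7 genes) went in mean log2 level from 5.01 in MFpc PBS libraries to 5.72 after IL1b and 6.17 after TNFa. In Mo.6C+ it went from 3.55 (2.68 to 4.20) to 5.08 after IL1b and 6.32 (5.81 to 6.68) after TNFa, carried by Hmox1 (7.79 to 12.62), Spic (5.95 to 10.43) and Vcam1 (1.72 to 5.52). Its genes Slc40a1, Cd5l and C1qa stood at 3.02, 1.95 and 3.66 in Mo.6C+ after TNFa, against 13.12, 10.76 and 11.51 in MFrp PBS libraries. The MFpc list itself went from 10.97 to 10.56 after IL1b, and the monocyte list in Mo.6C+ from 10.03 to 11.10 after IL6. In GN the neutrophil list (7 genes) went from 12.75 to 13.85 after IL1b and 13.48 after TNFa. The part of these shifts in the results was not tested.

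TNFa raised all 3 catalytic subunits in MFpc, Mo.6C+ and GN. Psmb5 carries the chymotrypsin-like activity, Psmb6 the caspase-like and Psmb7 the trypsin-like. In Mo.6C+ Psmb5 stood at 138, 97.3, 115, 103 and 116 CPM in the PBS libraries, at 162, 222 and 189 after IL1b, at 122, 132 and 147 after IL6 and at 195, 243 and 191 after TNFa. All IL1b and TNFa libraries lay above all PBS libraries, while the IL6 libraries overlapped them. The log2 fold change was 0.74 ± 0.14 (adjusted p = 0.000599) for IL1b and 0.88 ± 0.14 (adjusted p = 7.54e-05) for TNFa, with the standard error of the fit after ±. In MFpc the same gene stood at 76.1, 86.2, 77.4, 75.2 and 76 CPM in the PBS libraries and at 109, 102 and 100.3 after TNFa, a log2 fold change of 0.41 ± 0.09 (adjusted p = 0.000642). The TNFa libraries all lay above the PBS libraries.

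Psmb6 in GN was 51.6, 30, 21.5, 27.6 and 14.5 CPM in PBS libraries, 45.6, 81.5 and 45.6 after IL1b, 74.2, 86.4 and 63.4 after IL6 and 86.8, 94.4 and 101 after TNFa. PBS library 1 was the highest of its group, and the IL6 and TNFa libraries all lay above it while 2 of the IL1b libraries did not. The log2 fold changes were 0.98 ± 0.31 (adjusted p = 0.0282), 1.35 ± 0.30 (adjusted p = 0.00973) and 1.69 ± 0.30 (adjusted p = 0.000286). In Mo.6C+ it stood at 219, 156, 205, 173 and 163 CPM in the PBS libraries and at 390.3, 364 and 303 after TNFa (0.94 ± 0.14 (adjusted p = 3.32e-05)). In MFpc the TNFa libraries held 251, 216 and 206 CPM against 149, 167, 146, 163 and 140.0 (0.55 ± 0.10 (adjusted p = 6.39e-05)). TNFa raised Psmb6 in 6 cell types, also in DC.8+ (log2 fold change 0.63), NK (0.47) and pDC (0.37).

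Psmb7, which overlaps Nek6, stood in GN at 10.2, 13.6, 12.5, 8.05 and 15.4 CPM in PBS libraries and at 20.3, 23.8 and 32.6 after TNFa (1.10 ± 0.29 (adjusted p = 0.00644)). Every TNFa library lay above every PBS library. In MFpc it stood at 42.2, 47.4, 40.5, 36.6 and 32.5 CPM and at 59, 61.6 and 59.2 after TNFa (0.59 ± 0.12 (adjusted p = 0.000277)), and in Mo.6C+ at 58.3, 38.7, 36, 43.3 and 43.7 and 79.8, 64.5 and 71.7 (0.71 ± 0.16 (adjusted p = 0.00134)). Psmb5 in GN stood at 44.2, 40.6, 41.6, 42.4 and 43.6 CPM in the PBS libraries and 50.7, 84.9 and 84.5 after TNFa. Its log2 fold change of 0.79 ± 0.19 (adjusted p = 0.00286) was -0.00095 with library totals as the only scaling. Over the 14 cell types the catalytic genes were raised in 13 of 42 tests by TNFa, 7 of 39 by IL1b and 1 of 42 by IL6. Of all genes' tests 8.26%, 5.76% and 1.46% were raised, and the IL6 count is near that share.

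**Figure D2:**
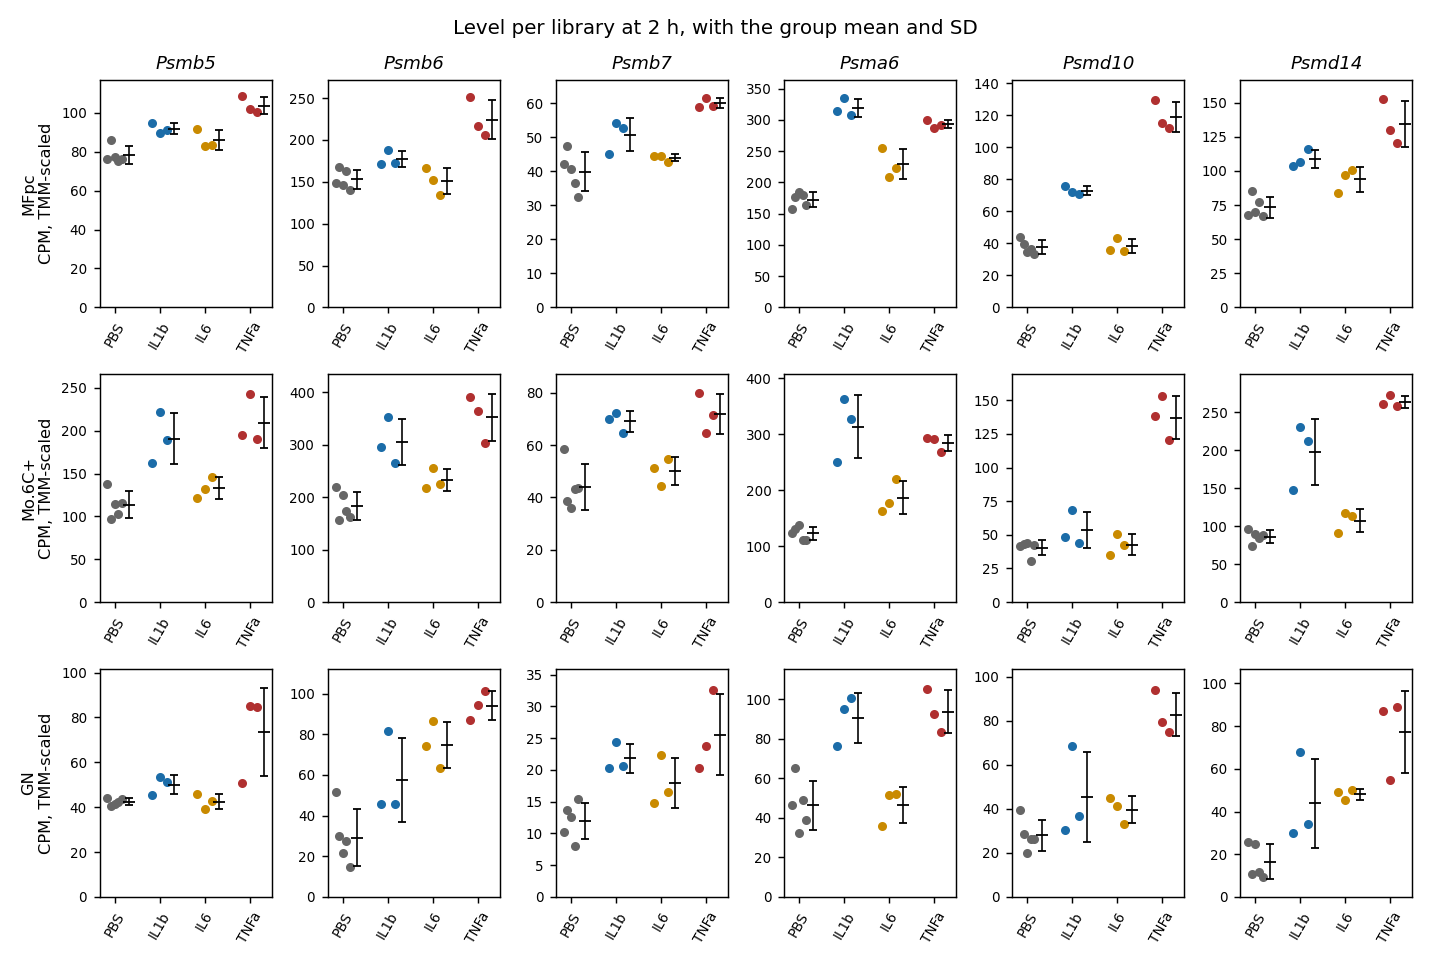
CPM of Psmb5, Psmb6, Psmb7, Psma6, Psmd10 and Psmd14 in every library of MFpc, Mo.6C+ and GN at 2 h, with the mean and SD of each group; the axes start at 0. In Mo.6C+ the TNFa libraries stand above all PBS libraries for each of the 6 genes; with library totals as the only scaling Psmb5 in GN after TNFa has a log2 fold change of -0.00095.

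Among the alpha subunits, which form the outer rings, Psma6 was raised in 8 cell types by TNFa, more than any other member, and in 3 by IL1b and 2 by IL6. Its TNFa calls in MC and T.4 were the only ones there, near the share of all genes (2.58% and 3.6%). Each was lost when certain single libraries were left out. In MFpc it stood at 157, 176, 184, 180.0 and 164 CPM in the PBS libraries, 314, 335 and 308 after IL1b, 255, 209 and 223 after IL6 and 299.8, 287 and 292 after TNFa. No treated library overlapped the PBS libraries, and IL1b gave the highest values. The log2 fold changes were 0.89 ± 0.08 (adjusted p = 5.86e-08), 0.41 ± 0.09 (adjusted p = 0.00218) and 0.77 ± 0.09 (adjusted p = 2.27e-07). In Mo.6C+ it stood at 124, 131, 137, 111 and 112 CPM, then 251, 362 and 328 after IL1b, 163, 176 and 219 after IL6 and 293, 290.5 and 268 after TNFa. The order of the log2 fold changes was that of MFpc, at 1.35 ± 0.14 (adjusted p = 1.08e-06), 0.60 ± 0.14 (adjusted p = 0.0146) and 1.21 ± 0.14 (adjusted p = 1.97e-06). The IL1b and TNFa libraries overlapped in Mo.6C+, and the direct contrast of these cytokines did not pass for Psma6 in either cell type.

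Psma6 in GN held 46.2, 65.2, 32.5, 49.1 and 38.8 CPM in PBS libraries, 76.4, 94.8 and 101 after IL1b and 105, 92.6 and 83.6 after TNFa, with log2 fold changes of 0.97 and 1.01. Its IL6 libraries (36.1, 51.6 and 52.3) overlapped the PBS libraries and were not called. Psma2 in GN stood at 89.1, 75.6, 76.2, 87.2 and 81.1 CPM, at 119, 135 and 124 after IL6 (0.62 ± 0.13 (adjusted p = 0.00797)) and at 151, 134 and 118 after TNFa (0.71 ± 0.13 (adjusted p = 0.000402)). The TNFa change turned to -0.07 with library totals as the only scaling.

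Psma3 was the one alpha subunit to fall. In GN it stood at 52.7, 68.7, 62.5, 50.6 and 56.5 CPM in the PBS libraries, at 58.3, 54.5 and 54.4 after IL1b, at 54, 59.3 and 57.3 after IL6 and at 35.6, 25.2 and 26.1 after TNFa, a log2 fold change of -1.003 ± 0.19 (adjusted p = 0.000402). The same gene was raised by TNFa in MFpc (0.68), Mo.6C+ (0.72) and MFrp (0.59). Psma7 was not raised in MFpc (log2 fold change 0.19 ± 0.09 (adjusted p = 0.0799)) or Mo.6C+ (0.06 ± 0.13 (adjusted p = 0.726)) by TNFa, and Psma1 was raised in Mo.6C+ (0.42) but not in MFpc (0.16 ± 0.10 (adjusted p = 0.176)). Alpha ring genes were raised in 26 and lowered in 1 of 98 tests by TNFa, raised in 10 of 91 by IL1b and 6 of 98 by IL6. The shares of all genes' tests were 8.26% raised and 7.95% lowered by TNFa, and 5.76% and 1.46% raised by IL1b and IL6. The testis-type Psma8 was called in none of its tests. In MFrp its PBS libraries held 0.965, 4.84, 11.1, 14.4 and 6.7 CPM and its TNFa libraries 1.94, 0.279 and 0, with a log2 fold change of -3.19 ± 1.16 (adjusted p = 0.0593).

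The structural beta subunits, which complete the inner rings without an active site, were raised in 9 of 56 tests by TNFa and lowered in 1, with 2 of 52 raised by IL1b and 1 of 56 by IL6. Among all genes' tests TNFa raised 8.26% and lowered 7.95%, IL1b raised 5.76% and IL6 1.46%. The IL1b and IL6 counts here are near or below those shares. Psmb2 and Psmb4 were raised by TNFa in Mo.6C+ (0.91 and 0.61) and MFpc (0.50 and 0.54). Psmb1 was not called in either (0.12 ± 0.11 (adjusted p = 0.412) and 0.14 ± 0.09 (adjusted p = 0.171)). In B.fo, whose libraries were highest for genes of follicular B cells, Psmb1 stood at 351, 379, 377, 386 and 369.8 CPM in the PBS libraries and at 272, 286 and 295 after TNFa (-0.39 ± 0.09 (adjusted p = 0.0177)). That was the 1 member of 34 lowered there, where 1.7% of all genes were lowered. At an unadjusted p under 0.05, 8 members were lower after IL1b, 7 after IL6 and 9 after TNFa and none higher, and DESeq2 lowered 1, 2 and 5. The IL1b libraries for Psmb1 (265, 317 and 303) and IL6 libraries (288 and 270.4) also lay below the PBS libraries, without passing the test. Totals of the B.fo TNFa libraries (6872067 to 8014028 counts) lay above those of PBS (2555640 to 4485774), and the part of this was not tested.

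The ATPases of the base were raised in 21 of 84 tests by TNFa, 11 of 78 by IL1b and 3 of 84 by IL6 (8.26%, 5.76% and 1.46% of all genes' tests). Psmc1, an ATPase whose tail helps to open the gate of the core, stood in Mo.6C+ at 126, 104, 95.5, 106 and 104 CPM in PBS libraries, 191, 310.3 and 227 after IL1b, 154, 159 and 186 after IL6 and 225, 265 and 213 after TNFa. All treated libraries lay above all PBS libraries. The log2 fold changes were 1.18 ± 0.15 (adjusted p = 1.24e-05), 0.64 ± 0.15 (adjusted p = 0.018) and 1.13 ± 0.15 (adjusted p = 1.06e-05). In MFpc they were 0.61, 0.38 and 0.63. TNFa raised all 6 ATPase genes in MFpc, from 0.29 for Psmc3 to 0.83 for Psmc5, and all 6 in Mo.6C+, from 0.59 for Psmc4 to 1.13 for Psmc1. In GN it raised Psmc1 (0.97) and Psmc6 (1.10).

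Of the base subunits without ATPase activity, Psmd1 and Psmd2 are the large scaffolds and Psmd4 a ubiquitin receptor. TNFa raised them in 10 of 42 tests, IL1b in 3 of 39 and IL6 in 2 of 42 (8.26%, 5.76% and 1.46% of all genes' tests). The IL1b count is near that share. Psmd1 was raised by TNFa in 5 cell types, with log2 fold changes of 1.19 in GN, 1.08 in Mo.6C+, 0.64 in MFpc, 0.50 in NK and 0.40 in pDC. Psmd2 was raised in Mo.6C+ (0.59) and MFpc (0.39), and Psmd4 in Mo.6C+ (0.46), MFpc (0.47) and pDC (0.35).

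Among the 8 lid genes, TNFa raised members in 23 of 112 tests, IL1b in 12 of 104 and IL6 in 5 of 112 (8.26%, 5.76% and 1.46% of all genes' tests). Psmd14, the deubiquitinase that removes ubiquitin chains from substrates, stood in Mo.6C+ at 95.8, 74, 89.8, 84 and 88 CPM in PBS libraries, 148, 231 and 213 after IL1b, 90.5, 118 and 114 after IL6 and 261, 273 and 258 after TNFa. The TNFa libraries were the highest and the IL6 libraries overlapped those of PBS. The log2 fold change was 1.19 ± 0.14 (adjusted p = 7.37e-06) for IL1b and 1.61 ± 0.14 (adjusted p = 1.37e-07) for TNFa. In GN it stood at 25.9, 11, 24.7, 11.9 and 9.18 CPM in the PBS libraries, 29.7, 67.9 and 34.3 after IL1b, 49.1, 45.2 and 50 after IL6 and 87.1, 54.9 and 89.1 after TNFa. Every treated library lay above every PBS library, with log2 fold changes of 1.40 ± 0.34 (adjusted p = 0.00664), 1.53 ± 0.34 (adjusted p = 0.00969) and 2.21 ± 0.34 (adjusted p = 6.75e-05). The last was the largest change of any called member in the screen.

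Psmd7, the partner of Psmd14 in the lid, had the smallest adjusted p after IL6 in MFpc. It stood at 108, 108, 104, 125 and 109.6 CPM in the PBS libraries and at 151, 158 and 155 after IL6 (0.48 ± 0.09 (adjusted p = 0.000797)), with no overlap. Psmd3, a scaffold of the lid, stood in Mo.6C+ at 71.6, 49.2, 52.4, 50.2 and 37.3 CPM in PBS libraries and at 142, 149 and 129 after TNFa (1.43 ± 0.26 (adjusted p = 0.000234)). In GN it stood at 20.8, 10.1, 12.9, 28 and 24.1 CPM and at 5.54, 4.19 and 11.7 after TNFa, a log2 fold change of -1.42 ± 0.61 (adjusted p = 0.0798). Psmd8 was not called in Mo.6C+ after TNFa (0.06 ± 0.10 (adjusted p = 0.64)) and was raised in MFpc (0.42) and GN (0.51, which turned to -0.27 with library totals as the only scaling).

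The Psmd5, Psmd9 and Psmd10 proteins are chaperones that help assemble the base and leave the finished particle. Their calls differed. Psmd10, also known as gankyrin, stood in MFpc at 44.2, 39.5, 34.9, 36.4 and 33.7 CPM in PBS libraries, 76, 72.1 and 70.9 after IL1b, 35.8, 43.3 and 35.5 after IL6 and 129, 115 and 112 after TNFa. The log2 fold change was 0.95 ± 0.11 (adjusted p = 7.21e-07) for IL1b and 1.66 ± 0.11 (adjusted p = 7.89e-11) for TNFa, and the IL6 libraries overlapped those of PBS. In Mo.6C+ it stood at 42, 43.1, 44.3, 30.7 and 42.3 CPM in the PBS libraries, 48.3, 68.6 and 43.9 after IL1b and 138, 153 and 120.5 after TNFa (1.76 ± 0.17 (adjusted p = 4.27e-07)). In GN it stood at 39.3, 28.6, 20, 26.3 and 26.2 CPM and 93.9, 79.7 and 75 after TNFa (1.56 ± 0.26 (adjusted p = 0.000129)). Psmd5 was raised in no cell type by any cytokine, and its smallest adjusted p after TNFa was 0.0537. Psmd9 was raised by TNFa in MFpc alone (0.36).

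**Figure D3:**
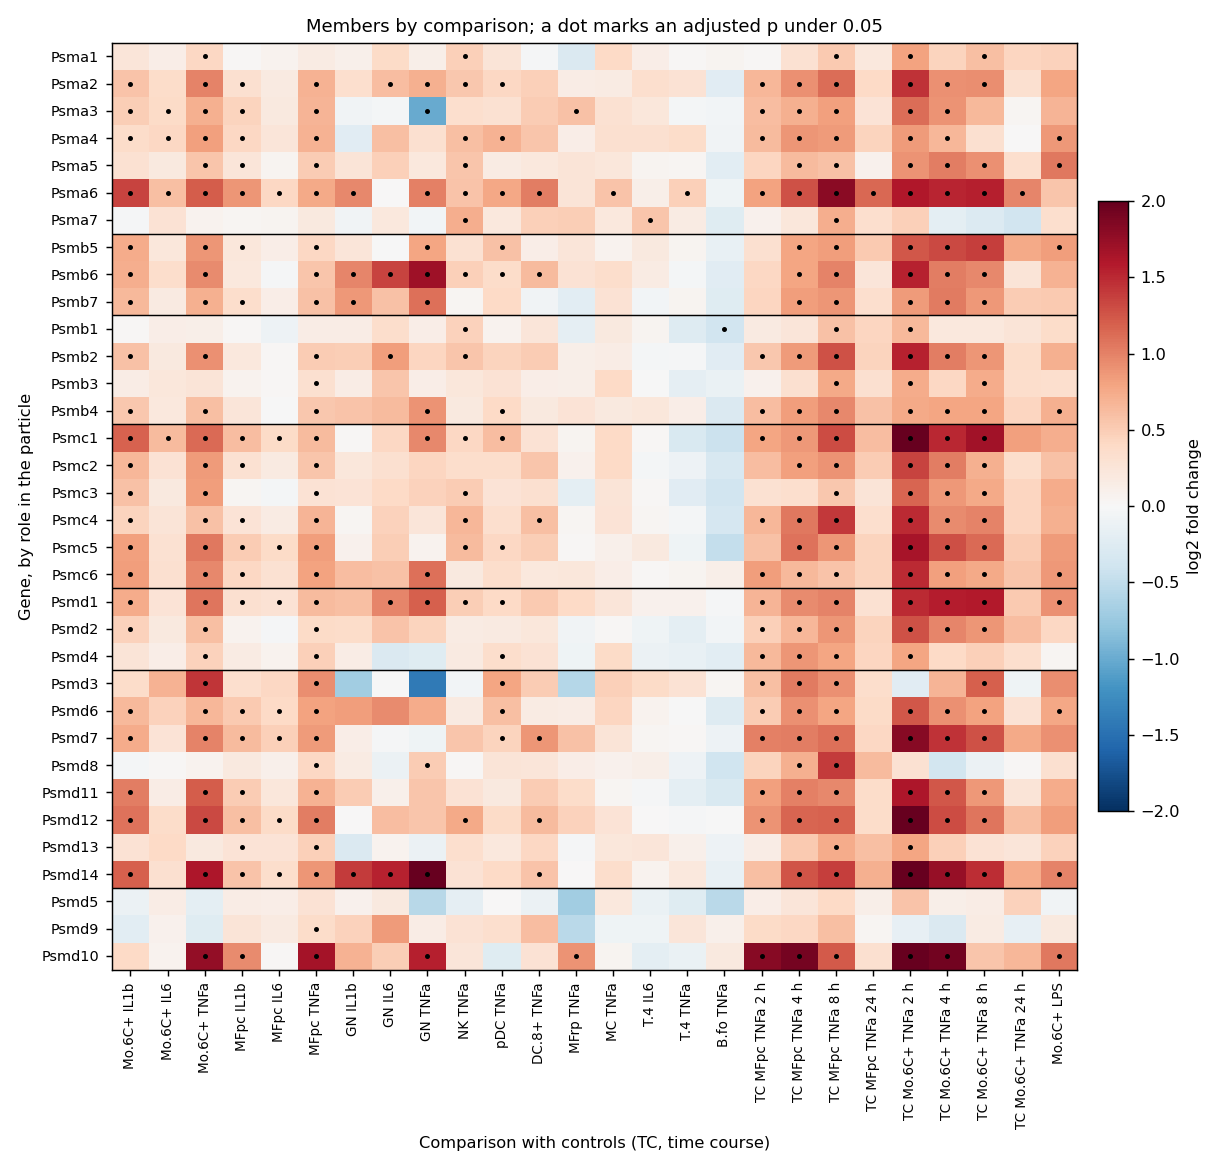
Log2 fold change (colour, from -2 to 2) of the 34 widely expressed members, ordered by role, in each comparison with a call, the time course and the LPS experiment; a dot marks an adjusted p under 0.05. Psma6 is called in 8 cell types after TNFa, Psmd10 reaches 1.76 in Mo.6C+, and Psmd5 carries no dot in the screen; the GN and MFrp columns after TNFa shift down with library totals as the only scaling.

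Outside MFpc, Mo.6C+ and GN, TNFa raised most members in NK, pDC and DC.8+. In NK it raised 15 of 34 (7.65% of all genes were raised), with a median of 0.35, or 9 without TNFa library 3. Psma7, an alpha subunit, led there at 266, 268, 255, 227 and 254 CPM in PBS libraries and 383, 373 and 513 after TNFa (0.73 ± 0.12 (adjusted p = 0.000279)), and TNFa library 3 was the highest. In pDC TNFa raised 13 of 35 (7.23%), with a median of 0.35, or 8 without PBS library 3 or TNFa library 2 and 5 without TNFa library 1. With library totals as the only scaling the counts were 12 in NK and 6 in pDC. Psma6 led in pDC at 132, 129, 124, 129 and 120.1 CPM in PBS libraries and 201, 244 and 206 after TNFa (0.78 ± 0.11 (adjusted p = 0.000114)).

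In DC.8+ TNFa raised 6 of 35 members (8.05% of all genes were raised), with a median of 0.41. With library totals as the only scaling it raised 2, with a median of 0.19, and DESeq2 raised 13. Psma6 led, at 213, 175, 180.1 and 163 CPM in PBS libraries and 362, 392 and 356 after TNFa (1.02 ± 0.15 (adjusted p = 0.000352)), followed by Psmd7 at 116, 123, 93.1 and 89.7 and 234, 195 and 157 (0.89 ± 0.18 (adjusted p = 0.00329)). This count rests on single libraries. It was 15 without PBS library 1, 3 without PBS library 2, 4 or 5, and 2 without TNFa library 2, and 2 under either planned omission of libraries with RNA of other cells, where Psma6 and Psmd7 still passed. The marginal zone B cell list stood at a mean log2 level of 2.84 in its PBS libraries and 3.60 after TNFa, and the part of such RNA in the result was not tested.

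In MFrp TNFa raised 2 of 35 (11.5% of all genes were raised), Psma3 and Psmd10. Psmd10 stood at 63.5, 79.7, 51.6, 58.8 and 36.7 CPM in the PBS libraries and 90.4, 136 and 97.3 after TNFa (0.90 ± 0.24 (adjusted p = 0.0162)). The count was 1 without PBS library 1, 5 without PBS library 2, 0 without TNFa library 2, and 4 without PBS libraries 1, 2 and 3, left out together because earlier results showed RNA of other cells in them (the natural killer list reached a mean log2 level of 7.03 in an MFrp library). The members' median was 0.12, but -0.19 with library totals as the only scaling, when none was raised and 3 were lowered. After IL6 the median was -0.27 and 2 of 35 members had a positive log2 fold change, with none called; 1 had an unadjusted p under 0.05 and DESeq2 called none.

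In MC TNFa raised Psma6 alone of 35 (2.58% of all genes were raised), at 163, 142, 161 and 141 CPM in PBS libraries and 255, 202 and 224 after TNFa (0.58 ± 0.15 (adjusted p = 0.0243)), and the call was lost without PBS library 3 or 5 or TNFa library 1 or 3. In T.4 TNFa raised Psma6 alone of 34 (3.6%), at 147, 127, 161, 143 and 142 CPM and 201, 219 and 181 (0.47 ± 0.11 (adjusted p = 0.00995)), and the call was lost without TNFa library 1 or 2. IL6 raised Psma7 alone there (1.61%), at 269, 243, 273, 188 and 303 CPM in PBS libraries and 350.0, 376 and 400.2 after IL6 (0.56 ± 0.12 (adjusted p = 0.0121)), lost without IL6 library 2 or 3.

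No member passed edgeR's test in Tgd, Treg, T.8 or MZB after any cytokine. At an unadjusted p under 0.05, Tgd had 1 member after IL1b, 1 after IL6 and 11 after TNFa, and Treg had 2, 9 and 7. T.8 had 1, 5 and 1, and MZB 7, 2 and 2. DESeq2 called 1 member in Treg after IL6 and 1 after TNFa, 2 in T.8 after IL6 and 1 in MZB after IL1b. Medians over members ran from -0.04 (MZB after TNFa) to 0.22 (Treg after IL6). In B.fo the medians were -0.17, -0.15 and -0.21 after IL1b, IL6 and TNFa, and the summed level was 4572 ± 122 CPM (SD, n = 3) after TNFa against 5265 ± 163 (n = 5) in PBS libraries. Library totals in B.fo ran from 2555640 to 4485774 counts for PBS and 3050467 to 4656127 for IL1b. They ran from 6553203 to 9291121 for IL6 and 6872067 to 8014028 for TNFa. The part of this difference in depth was not tested.

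The difference between cell types was tested directly in 1 fit over the 183 screen libraries. That fit took all libraries as independent, and whether cell types share animals was not examined. The TNFa response depended on cell type for 26 of 36 members, where 36.3% of all genes did, led by Psma3 (adjusted p = 4.3e-15), Psmd10 (4.2e-14) and Psmd14 (1.4e-11). The IL1b response did for 13 members (22.8% of all genes), and the IL6 response for 9 (6.87%). The counts moved to 5 for IL1b, 0 for IL6 and 17 for TNFa when libraries with replicate number 2 were left out, and to 7 for IL1b and 1 for IL6 without number 3.

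Direct contrasts between cytokines within a cell type showed where their sizes differed. In MFpc 27 members were lower after IL6 than after TNFa (19.6% of all genes were lower) and 11 lower after IL1b than after TNFa (7.82%), among them Psmb6, Psmc4, Psmc5, Psmd10 and Psmd12. IL1b exceeded IL6 for Psma6 and Psmd10 (9.99% of all genes were higher). In Mo.6C+ 21 members were lower after IL6 than after TNFa (18.6%), and Psma4, Psmd10 and Psmd3 were lower after IL1b (6.55%). IL1b exceeded IL6 there for 8 members (11.1%), which were Psma6, Psmb5, Psmc1, Psmc5, Psmc6, Psmd11, Psmd12 and Psmd14.

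In GN 4 members were lower after IL6 than after TNFa (15.6% of all genes), Psma6, Psmb5, Psmd10 and Psmd8, and Psma3 was higher (16.8%). Psmc1 and Psmd10 were lower after IL1b than after TNFa (10.1%), with Psma3 higher (11.5%), and Psma6 was higher after IL1b than after IL6 (9.89%). These GN counts are near or below the share of all genes. Elsewhere a single member passed as lower after IL6 than after TNFa: Psma6 in DC.8+ (4.52%) and pDC (2.98%), Psmc4 in NK (3.36%) and Psmd10 in MFrp (7.0%). These counts too are near or below the share of all genes. At an unadjusted p under 0.05, 15 of 34 members were lower after IL6 in NK, 12 of 35 in pDC, 11 in MFrp, 8 in DC.8+ and 6 in MC. At that threshold 1 was higher in MFrp and none in NK, pDC, DC.8+ or MC. In NK 9 were lower after IL1b than after TNFa and none higher.

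After TNFa most members were raised from 2 to 8 h, and 1 in each cell type passed the test at 24 h. All times were set against the same 2 PBS libraries, sorted at 24 h, so the comparisons share their controls. At 2, 4 and 8 h an effect of TNFa cannot be told apart from one of the time since injection. In MFpc, TNFa raised 18 of 35 members at 2 h (18.1% of all genes were raised), 26 at 4 h (18.7%), 32 at 8 h (15.6%) and 1 at 24 h (3.81%). Median log2 fold changes were 0.58, 0.84, 0.88 and 0.38. In Mo.6C+ it raised 29 at 2 h (19.7%), 24 at 4 h (15.9%), 24 at 8 h (11.5%) and 1 at 24 h (2.74%), with medians of 1.23, 0.95, 0.87 and 0.42. With library totals as the only scaling the order over time in Mo.6C+ turned, with 20, 22 and 26 raised and medians of 0.80, 0.73 and 0.92 at 2, 4 and 8 h. None was lowered in any of the 8 comparisons by edgeR, at an unadjusted p under 0.05 or by DESeq2.

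With 2 libraries per group, single libraries set these counts. In MFpc the 2 h count was 6 or 5 without PBS library 1 or 2, and 7 without either 2 h library. The 4 h count was 16 without PBS library 2. The 8 h count was 17 or 16 without PBS library 1 or 2 and 21 without 8 h library 1, and the 24 h count was 0 without PBS library 1 and 18 without 24 h library 2. In Mo.6C+ the 4 h count was 14 without PBS library 1, and the 8 h count was 6 or 9 without PBS library 1 or 2 and 13 without 8 h library 2. The 24 h count was 0 without any 1 of its 4 libraries. With library totals as the only scaling, the MFpc 2 h count was 1, and the median of all genes moved there by -0.49.

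Psma6 was the one member raised at every time in both cell types. In MFpc it stood at 120.0 and 126 CPM in the PBS libraries, 208 and 221 at 2 h, 304 and 289.9 at 4 h, 464 and 393 at 8 h and 329 and 214 at 24 h. The highest values came at 8 h and the 24 h libraries stood apart from each other. Log2 fold changes were 0.80, 1.27, 1.80 and 1.14 ± 0.20 (adjusted p = 0.00408). In Mo.6C+ it stood at 97.4 and 92.2 CPM, then 337 and 241, 274 and 268, 267 and 288 and 190.3 and 183, with log2 fold changes of 1.61, 1.52, 1.55 and 0.98 ± 0.20 (adjusted p = 0.0168).

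The catalytic Psmb5 stood in MFpc at 58.6 and 55.4 CPM in PBS libraries and at 75.7 and 66.1, 102 and 95.8, 113 and 89.4 and 95.9 and 68 at the 4 times. It was raised at 4 h (0.79) and 8 h (0.83). In Mo.6C+ it stood at 76.5 and 86.7 CPM and at 199.7 and 184, 213 and 193, 197 and 228 and 164 and 111. It was raised there from 2 to 8 h, by 1.23, 1.31 and 1.38.

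The chaperone gene Psmd10 had its highest values at 2 and 4 h. In MFpc it stood at 24.9 and 31.5 CPM in the PBS libraries, 105 and 95 at 2 h, 115 and 98 at 4 h, 73.5 and 57.8 at 8 h and 29.7 and 41 at 24 h. In Mo.6C+ it stood at 28.4 and 34.9, 185 and 106, 124 and 117, 35.4 and 58 and 63.5 and 36.3 CPM, and was the 1 member of 35 lower at 8 h than at 4 h (7.61% of all genes were lower). The lid gene Psmd14 in Mo.6C+ went from 77.4 and 74.1 CPM to 412 and 219 at 2 h, 252 and 256 at 4 h, 217 and 207 at 8 h and 146 and 107 at 24 h. The ATPase gene Psmc1 held 67.8 and 68.5 CPM in PBS libraries and 312 and 234 at 2 h (2.00 ± 0.22 (adjusted p = 2.94e-05)).

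The lid gene Psmd8 differed between the cell types. In MFpc it stood at 117 and 107 CPM in the PBS libraries, 140.4 and 166 at 2 h, 173 and 194 at 4 h, 268 and 324 at 8 h (1.40 ± 0.18 (adjusted p = 0.000139)) and 196 and 152 at 24 h. In Mo.6C+ it was not called at any time, with log2 fold changes of 0.30, -0.37, -0.11 and 0.02. Psmd8 was the 1 member of 35 whose response was higher in MFpc than in Mo.6C+ at 4 h (3.63% of all genes) and at 8 h (4.23%). Both counts are below the share of all genes and rest on 2 libraries per group. At 2 h the response was lower in MFpc for 9 members (4.94%), namely Psma1, Psmb2, Psmb5, Psmb6, Psmc1, Psmc3, Psmc5, Psmd12 and Psmd14. At 24 h no member differed by edgeR, where 0.884% of all genes were higher and 2.01% lower. At an unadjusted p under 0.05, 2 were higher and none lower, and no other tool was run.

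Between successive times, 10 members were lower at 24 h than at 8 h in MFpc (11.4% of all genes), and Psmd8 was higher at 8 h than at 4 h (4.79%). In Mo.6C+ Psmd8 was lower at 4 h than at 2 h (5.25%), and Psmc1, Psmd1 and Psmd3 were lower at 24 h than at 8 h (6.02%). At 24 h 22 were lower there than at 2 h (17.5%), against 1 in MFpc, Psmd10 (17.2%). Each count of 1 member is below the share of all genes. The summed level in Mo.6C+ was 3953 and 4005 CPM in the PBS libraries and 10339 and 7295 at 2 h. In these 2 h libraries the neutrophil list stood at a mean log2 level of 5.52 against 0.89 in the PBS libraries, the natural killer list at 2.88 against 1.12 and the T.8 list at 2.75 against 1.59. In MFpc the list of its own markers stood at 10.61 in PBS libraries and 10.13 at 8 h, and the monocyte list at 6.27 and 6.77. Their part in the results was not tested.

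By role, the time course raised alpha ring genes in 33 of 56 tests, catalytic genes in 15 of 24, structural beta genes in 17 of 32, ATPases in 32 of 48, the other base subunits in 16 of 24 and lid genes in 37 of 64. The assembly chaperones were raised in 5 of 24, all of them Psmd10. In all, 155 of 280 tests were raised. In single comparisons of the time course, from 2.74% (Mo.6C+ at 24 h) to 19.7% (Mo.6C+ at 2 h) of all genes were raised. The share of all genes' tests raised over these comparisons together was not counted, so the role counts have no pooled share beside them.

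LPS raised 9 of 34 members in Mo.6C+ (10.2% of all genes were raised), with a median log2 fold change of 0.71, and lowered none by edgeR, at an unadjusted p under 0.05 or by DESeq2. The 9 were Psma4, Psma5, Psmb4, Psmb5, Psmc6, Psmd1, Psmd6, Psmd10 and Psmd14. Psma5 stood at 72.6, 103 and 76.1 CPM in the controls and 166, 160.2 and 193 after LPS (1.05 ± 0.24 (adjusted p = 0.0143)), and Psmd14 at 86.1, 142 and 84.9 and 237, 191 and 198 (1.00 ± 0.27 (adjusted p = 0.0288)). Psmb5 stood at 84, 80.3 and 93.9 and 122, 189 and 149.5 (0.84 ± 0.25 (adjusted p = 0.04)), while Psmb6 at 146, 281 and 141 and 393, 292 and 232 was not called, its control library 2 overlapping the LPS libraries. Control library 2 had a summed level of 6457 CPM, above the other controls at 4174 and 4218 and near the LPS libraries at 6764 to 8750. The count was 21 without control library 2, 0 without control library 1 or 3 or LPS library 3, 1 without LPS library 2, and 0 with library totals as the only scaling. The monocyte list stood at 10.14 in the controls and 11.04 after LPS (mean log2 level), the pDC list at 3.25 and 4.26, and the neutrophil list at 1.17 and 2.55, whose part was not tested.

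Against the cytokine responses of Mo.6C+ in the screen, each taken against its own controls, the LPS response was higher for Psma5 than that to IL1b (3.2% of all genes were higher) and for Psma5 and Psmd10 than that to IL6 (6.2%). Against TNFa no member differed by edgeR, where 4.65% of all genes were higher and 1.99% lower. At an unadjusted p under 0.05, 1 was higher and 4 lower, and no other tool was run. The LPS and screen libraries differ in agent and possibly in time of sort.

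The other proteasome genes moved unevenly beside the constitutive subunits. In single comparisons, from 0% (NK after IL6) to 53.4% (MFpc after TNFa) of all genes were called in either direction. How often any gene is called over the 50 comparisons was not counted. The genes named were chosen as the most often called of their lists. Of the immunoproteasome subunits, Psmb10 was raised in 19 of 50 comparisons and lowered in none, Psmb8 was raised in 1, and Psmb9 was raised in 1 and lowered in 3. Psmb10 in MFpc stood at 114, 101, 95, 107 and 102 CPM in the PBS libraries and 214, 189 and 213 after TNFa, a log2 fold change of 0.98 ± 0.09. It was 1.18 in MFrp, 1.17 in GN and 0.78 in Mo.6C+. Psmb9 fell in MFpc after IL1b (-0.29), in GN after IL1b (-0.70) and in Mo.6C+ at 8 h (-0.97), and rose after LPS (1.01). Psmb8 rose in T.4 after IL6 (0.42).

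Among the activators that cap the core in place of the regulatory particle, Psme2 was raised in 19 of 50 comparisons, Psme3 in 12 and Psme1 in 8, with 1 lowered for Psme1. Psme2 in GN had a mean of 59.1 CPM in PBS libraries and 473 after TNFa (3.00 ± 0.15 (adjusted p = 1.44e-10)). Of the other subunits and associated factors, the ubiquitin receptor Adrm1 was raised in 14, Txnl1 in 13 and the deubiquitinase Usp14 in 12, none lowered. Of the assembly chaperones outside the rule, Pomp, which matures the core, was raised in 9 comparisons, with 1.37 ± 0.21 (adjusted p = 0.000123) in GN after IL1b.

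In the NRF1 route, Nfe2l2 (NRF2) was raised in 17 of 50 comparisons and Nfe2l1 (NRF1) in 7, with none lowered. After TNFa, Nfe2l2 changed by 2.12 ± 0.10 (adjusted p = 5.3e-13) in MFpc and by 2.01 in Mo.6C+, and Nfe2l1 by 0.95 in MFpc and 1.22 in GN. Maff, a small partner of both, was raised in 14 of 40. After TNFa in the screen the route's genes were raised in 28 and lowered in 8 of 151 tests, the activators in 17 and 1 of 70, the other subunits in 19 and 6 of 126, the assembly chaperones in 4 and 1 of 69, and the immunoproteasome in 7 and 0 of 42. The ubiquitin genes and shuttles went both ways, 19 raised and 14 lowered of 180. The shuttle Nbr1 was lowered in 18 of 50 comparisons and raised in none, with -3.03 ± 0.39 (adjusted p = 0.000741) after LPS, while Sqstm1 was raised in 8 and lowered in 2. For comparison with the counts after TNFa in the screen, 8.26% of all genes' tests there were raised and 7.95% lowered.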

How the data were processed

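RNA of sorted mouse immune cells was measured in 209 libraries. The authors aligned reads with STAR 2.7.3a and counted them with featureCounts on mm10, per the submitters' processing notes. Which annotation was used, whether strand was, and how multiply matching reads were handled is not given in the sources used here. Their deposited tables hold raw counts for each gene symbol. Groups came from the sample titles.

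Each cell type of the screen, each time course and the LPS experiment was fitted on its own (17 fits, 50 comparisons with controls) with edgeR 4.0.16 in R 4.3.3: TMM scaling, filterByExpr at its defaults, the quasi-likelihood test and Benjamini-Hochberg adjustment over all genes tested, called at an adjusted p under 0.05. CPM were TMM-scaled within each fit, except the PBS levels across cell types, scaled over all PBS libraries of the screen together, and log2 CPM used a prior count of 2. Dependence on cell type was tested in 1 fit of the 183 screen libraries, whose dispersion trend came from 1 gene in 8. Positions are GENCODE vM21 on GRCm38 (52936 symbols matched); promoter windows are RefSeq's. Alternatives were DESeq2 1.42.0, RLE scaling, library totals only, no filter, a replicate block, only the 2 groups compared and leaving out libraries. The script was tested on simulated counts. Total counts per library (1094567 to 9291121) limit the precision of the lowest members.

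Members and lists were chosen with earlier results of these data known. All members are counted by role. Values by library are given for Psmb5, Psmb6 and Psmb7 and for members chosen by the number of cell types called, by the smallest adjusted p (per comparison, per time, for LPS and for dependence on cell type) and by the largest or smallest median change; others beside them, such as Psma8, were named after their values were seen. From each list up to 3 genes called in the most comparisons are named.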

Additional observations from a re-analysis of the deposited data

Results flagged for a closer look

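Of 56 sets of values (the summed level, Psmb5, Psmb6 and Psmb7 in each PBS group of 4 or 5 libraries), 6 held 1 library far from the rest, where chance gives about 1 in 20. Treg PBS library 2 had a summed member level of 7534 CPM (scaled within Treg, unlike the PBS levels compared across cell types), with the others between 5884 and 6158. Psmb5 stood at 86.2 CPM in MFpc PBS library 2 (others 75.2 to 77.4), at 146 in Treg PBS library 2 (99.8 to 113) and at 80.7 in MZB PBS library 1 (66.6 to 68.6). Psmb6 stood at 202 CPM in MFrp PBS library 2 (148 to 160), and Psmb7 at 36.8 in MZB PBS library 2 (27.2 to 27.99).

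Responses differed between cell types by the test of the difference itself for 13 members after IL1b, 9 after IL6 and 26 after TNFa. In the time course the MFpc and Mo.6C+ responses differed for 9 members at 2 h, 1 at 4 h and 1 at 8 h.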

How the results depend on the processing

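Of the 200 calls of single members that were followed, 3 were lost with RLE scaling, 59 with library totals as the only scaling, 22 without the filter on low counts, 13 of 194 when only the 2 groups compared were fitted and 3 with DESeq2. Leaving out libraries with RNA of other cells lost 3 of the 14 calls it touches, and 81 calls were lost somewhere when 1 library was left out, with none reversed. Where a count or sign moved, the cause was not tested.

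With library totals only, 4 changes turned negative: Psma2 (-0.070), Psmb5 (-0.00095) and Psmd8 (-0.27) in GN after TNFa, and Psmd2 in MFpc at 2 h of the time course (-0.018). The same setting gave 28 raised and 4 lowered for IL1b and 64 raised and 21 lowered for TNFa, against 46, 0, 107 and 2. It gave 12 raised for IL1b in MFpc (20 under TMM), 3 for TNFa in GN (12), 6 for TNFa in pDC (13), 1 in MFpc at 2 h of the time course (18), 2 in Mo.6C+ at 24 h (1), 1 lowered in Mo.6C+ at 4 h (0) and 0 raised after LPS (9). The ratio of highest to lowest PBS level became 3.239 (2.054 under TMM).

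Without the filter, the count was 12 for IL1b in MFpc, 4 in MFpc at 24 h, 2 in Mo.6C+ at 24 h and 5 after LPS. DESeq2 gave 1, 2 and 8 lowered after IL1b, IL6 and TNFa, 4 raised in MFpc at 24 h and 3 in Mo.6C+ at 24 h. Fits of only the 2 groups compared gave 9 raised at 24 h and 1 lowered at 4 h in Mo.6C+.

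Libraries with the same replicate number in different groups of a fit were compared by the correlation of their deviations. In none of the 17 fits did every such pair exceed 0.1, so the numbers were not taken as pairing. That rule can miss a partial link. In DC.8+ the mean correlation was 0.115 for the same number and -0.034 for different numbers. Pairs between cell types were not examined. With the replicate number as a block, which could be fitted for 47 of 50 comparisons, 33 followed calls were lost. The block gave 9 raised for IL6, 4 lowered for TNFa, 6 raised for TNFa in NK, 8 in pDC and 2 after LPS.

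With 1 library left out, raised counts ran from 41 to 49 for IL1b, 14 to 20 for IL6 and 99 to 116 for TNFa (lowered 1 to 4). In the MFpc time course they ran from 5 to 7 at 2 h, 16 to 24 at 4 h, 16 to 31 at 8 h and 0 to 18 at 24 h. In that of Mo.6C+ they ran from 21 to 31 (lowered 0 to 1), 14 to 22, 6 to 17 and 0 to 0. A group left with 1 library was assumed to vary like the other groups. After LPS they ran from 0 to 21. Counts of members dependent on cell type ran from 5 to 14 for IL1b, 0 to 10 for IL6 and 17 to 26 for TNFa. Single comparisons gave 15 to 20 (MFpc, IL1b), 29 to 31 (MFpc, TNFa), 9 to 15 (NK), 18 to 23 (Mo.6C+, IL1b), 25 to 27 (Mo.6C+, TNFa), 10 to 16 (GN) and 5 to 16 (pDC).

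Library totals limit what can be seen of Psma8 and Psmb11, whose counts are at or near 0 in many libraries, and with 2 or 3 libraries per treated group an uncalled change is not shown to be absent.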
